A study of Mus musculus with 24 samples.

Results

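The genes described here are those of the HOXA9 fusion, Hoxa9 and Esr1, and of the TALE homeobox partners of HOX proteins, Meis1, Pknox1, Pbx2, Pbx3 and Pbx4. They were chosen by name, by matching Ensembl gene identifiers with the version removed, and make up 7 of the 45319 gene rows of the deposited count table. All 7 passed the filter on low counts in every comparison. The cells are Lys-GFP-ER-HoxA9 cells, a mouse progenitor line of the C57Bl/6 strain that, by its name, carries a lysozyme-GFP reporter and HoxA9 joined to the oestrogen receptor. All 24 libraries share that reporter and that fusion, and all cells were grown with stem cell factor and 0.5 micromolar beta-estradiol. In the R07 arm, cells were treated for 12, 36, 72 or 120 h with R07, a compound given only by this code, with 1 library a time. In the withdrawal arm, cells were cultured without beta-estradiol for 0, 4, 8, 12, 24, 36, 48, 72, 96 or 120 h, with 2 libraries a time. The labels carry the same withdrawal wording on R07 and on withdrawal libraries, so whether beta-estradiol was in the medium during R07 treatment is not known here. They give neither the number of clones behind the line, nor the species of either part of the fusion, nor whether paired libraries came from separate cultures. The p-values below therefore measure only the spread between these libraries, which may be technical.

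HOXA9 is a homeobox transcription factor of haematopoietic stem and progenitor cells that is switched down as myeloid cells mature. It binds DNA weakly by itself and gains affinity and specificity by pairing with PBX proteins, which belong to the TALE homeobox class. MEIS proteins and PKNOX1 (PREP1) are TALE proteins that bind PBX, keep it in the nucleus and can join a HOX-PBX complex, and MEIS1 speeds HOXA9-driven leukaemia in mice. Joining a protein to the hormone-binding part of the oestrogen receptor makes it depend on ligand: without estradiol the fusion is held by heat shock protein chaperones.

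The libraries held 36661334 to 49601719 gene counts, with a median of 43744592, and 82.7 to 85.7% of reads were assigned to genes. Levels are CPM, counts scaled to a common library size with TMM factors, and changes are log2 values ± SE from edgeR's quasi-likelihood test. A gene is called when its p, adjusted by Benjamini-Hochberg over all genes tested, is under 0.05. The 2 withdrawal libraries of a time are called A and B after the letters of their columns, as in 4 h A, and values are given in that order.

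On the mm10 build the Hoxa9 row (ENSMUSG00000038227.12) lies on chromosome 6, 52223100 to 52231089, minus strand. The Esr1 row (ENSMUSG00000019768.13) lies on chromosome 10, 4611593 to 5005614, plus strand. Both rows may hold reads of the fusion transgene, and the table does not separate those from reads of the native genes. Meis1 (ENSMUSG00000020160.15) lies on chromosome 11, 18879817 to 19018985, minus strand. Pknox1 (ENSMUSG00000006705.9) lies on chromosome 17, 31564734 to 31607693, plus strand. Pbx2 (ENSMUSG00000034673.11) lies on the same chromosome, 34591266 to 34597400, plus strand, and shares 227 exonic bases with Gpsm3 on that strand. Pbx3 (ENSMUSG00000038718.12) lies on chromosome 2, 34171457 to 34373142, minus strand, and Pbx4 (ENSMUSG00000031860.14) on chromosome 8, 69832491 to 69872292, plus strand.

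Meis1 and Pbx4 were the members that moved furthest, both lower late in withdrawal and both higher with R07 than in withdrawal. At 4 h of withdrawal they lay on opposite sides of 0 h. Their RefSeq promoter windows on GRCm38.p6 are shown. Each window runs from 250 bases before to 50 bases after the start site, and capitals mark CCAAT boxes, read CCAAT forward or ATTGG in reverse. The Meis1 window is chr11:19018920-19019219, minus strand, and the Pbx4 window is chr8:69832374-69832673, plus strand.
Meis1: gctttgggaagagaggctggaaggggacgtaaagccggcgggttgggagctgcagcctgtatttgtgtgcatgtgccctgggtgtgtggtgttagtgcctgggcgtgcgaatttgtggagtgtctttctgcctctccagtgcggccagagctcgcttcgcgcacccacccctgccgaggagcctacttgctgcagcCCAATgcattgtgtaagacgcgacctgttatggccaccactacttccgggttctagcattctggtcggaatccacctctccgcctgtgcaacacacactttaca
Pbx4: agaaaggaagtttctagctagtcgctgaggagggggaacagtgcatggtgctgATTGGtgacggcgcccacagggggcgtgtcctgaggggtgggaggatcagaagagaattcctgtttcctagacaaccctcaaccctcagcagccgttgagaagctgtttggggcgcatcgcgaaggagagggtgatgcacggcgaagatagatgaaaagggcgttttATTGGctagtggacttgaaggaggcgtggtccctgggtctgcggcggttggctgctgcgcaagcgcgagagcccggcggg

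Both strands were searched for 4 sets of letters, and the shares given are of 32851 mouse promoter windows of 300 bases. The CCAAT box was added after the sequences had been read. It stands at position -54 from the Meis1 start site, and stands at positions -197 and -30 from the Pbx4 start site in reverse. It occurs in 37.4% of all windows. Neither window holds the HOX-PBX letters TGATTNAT (3.22% of all windows), the MEIS or PKNOX letters TGACAG (19.2%) or the palindromic oestrogen response element (0.07%), and neither do the windows of Hoxa9, Esr1 and Pbx2. The CCAAT box also stands at position -49 from one of 2 Esr1 start sites. The Meis1 and Pbx4 windows hold 58.3 and 59.3% G and C, against a median of 52.7% over all windows.

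**Figure D1:**
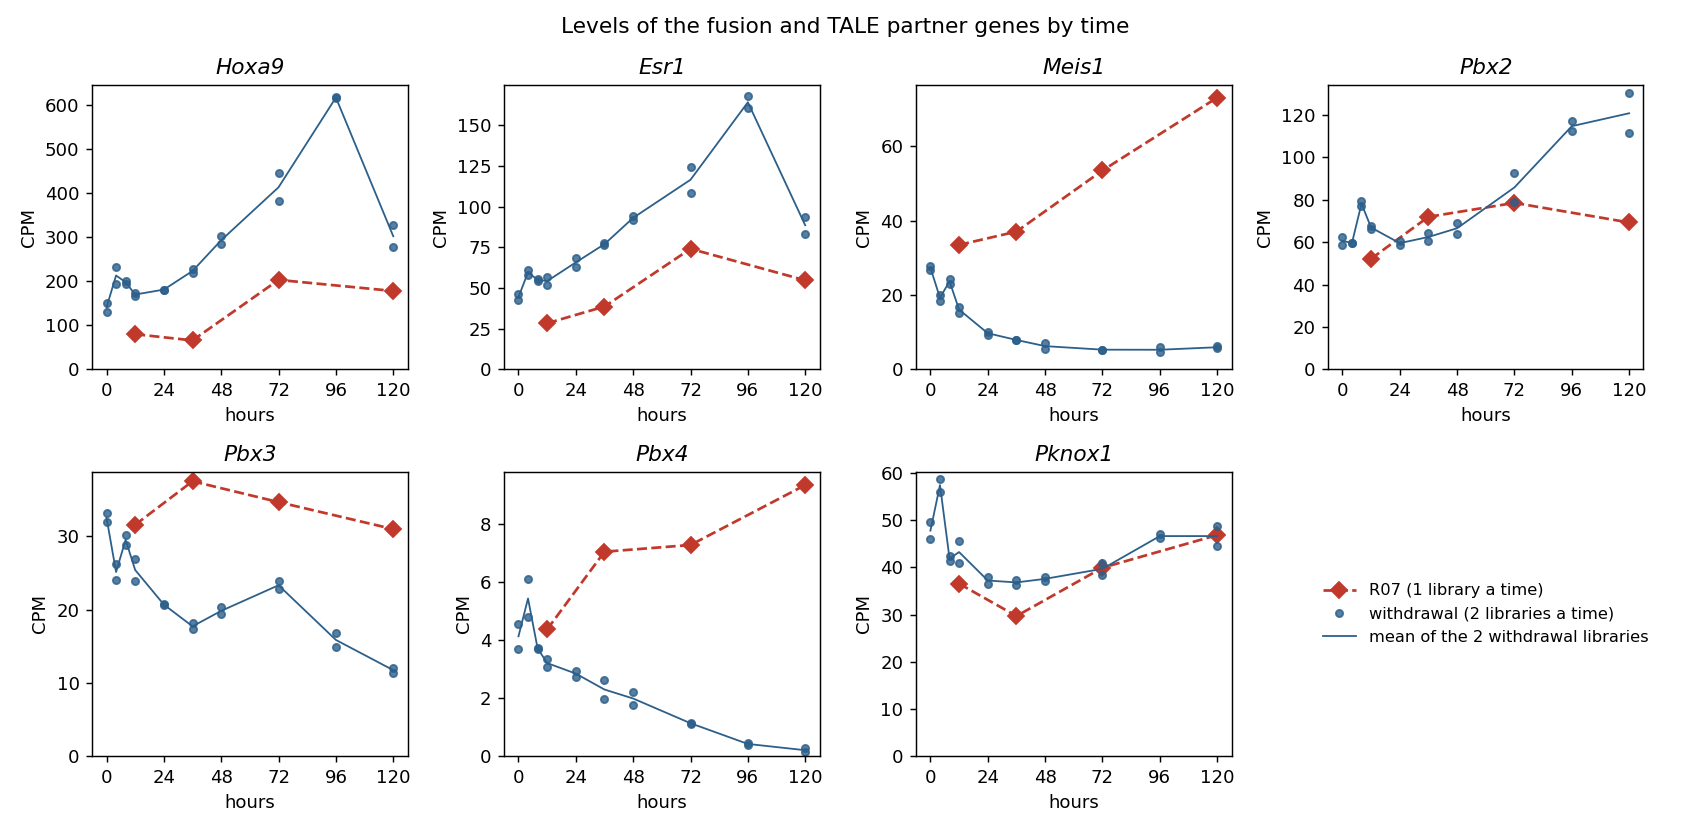
CPM (y axis, from 0) of the 7 genes by hours (x axis) in each library; diamonds are single R07 libraries, dots the 2 withdrawal libraries of a time and the solid line their mean. Hoxa9 and Esr1 peak at 96 h of withdrawal, Meis1, Pbx3 and Pbx4 decline during withdrawal but not with R07, and Pknox1 ends near its level at 0 h.

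Against 0 h, the fusion rows and 3 TALE partners lay on opposite sides for most of the withdrawal course: Hoxa9 and Esr1 were higher, and Meis1, Pbx3 and Pbx4 lower. At 4 h, 4 of the 7 were called (Hoxa9 and Esr1 higher, Meis1 and Pbx3 lower), against 11.7% of the 14615 genes tested. At 8 h it was 3 (Hoxa9, Esr1 and Pbx2, all higher), against 21.9%, and at 12 h 2 (Meis1 and Pbx3, lower), against 16.0%. Hoxa9 at 4 h and Meis1 at 12 h were called whichever library was left out, and the other early calls were each lost without at least 1 library. The count at 4 h was 1 without 4 h A and 2 without 0 h B, that at 8 h was 0 without 0 h B and 1 without 8 h A or 8 h B, and that at 12 h was 1 without 0 h B or 12 h B. At 24 h, 6 members were called against 27.9% of genes (3 without 24 h B), at 36 h 6 against 40.9% and at 48 h 6 against 52.6%, with Pbx2 the one not called each time. At 72 h all 7 were called against 69.6%, at 96 h 6 against 77.4% and at 120 h 6 against 79.9%, with Pknox1 not called at the last 2 times. At 120 h 3 members were higher, against 39.6% of genes, and 3 lower, against 40.3%. Over the whole course all 7 were called, against 91.1% of genes, so from 48 h on a call was the rule in this table.

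Between neighbouring times, both the members and the genes called in the whole table were fewest from 24 to 36 h. From 4 to 8 h 3 members were called (12.4% of genes), from 8 to 12 h 1 (9.21%), from 12 to 24 h 3 (19.6%), from 24 to 36 h 0 (7.18%) and from 36 to 48 h 1 (12.7%). At an unadjusted p under 0.05, 4 of 7 members and 19.8% of genes passed from 24 to 36 h, and DESeq2 called 0 members. The later steps took in 4 members from 48 to 72 h (44.0%), 6 from 72 to 96 h (53.7%) and 3 from 96 to 120 h (43.2%).

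Hoxa9 rose early, slackened and then climbed to a peak at 96 h. Its levels were 150.3 and 131 CPM at 0 h, 232 and 194 at 4 h, 201 and 194 at 8 h, 173 and 167 at 12 h, and 181 in both libraries at 24 h. They were 219 and 227 at 36 h, 302 and 284 at 48 h, 445 and 381 at 72 h, 615 and 617 at 96 h, and 326 and 277 at 120 h. No library after 0 h reached down to the pair at 0 h. The change was 0.60 ± 0.10 at 4 h against 0 h (edgeR adjusted p = 4.65e-04) and 2.12 ± 0.11 at 96 h (adjusted p = 2.92e-13). At 12 h it was 0.26 ± 0.10 and not called (adjusted p = 0.0964), and the call at 24 h was lost on leaving out 24 h A, 24 h B or 0 h B. The last step went down, with a log2 change of -1.03 ± 0.10 at 120 h against 96 h (adjusted p = 8.51e-08).

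Esr1, the oestrogen receptor alpha gene, also rose to a peak at 96 h, at a lower count, though its ratio to Hoxa9 drifted over the course. It stood at 46.3 and 42.6 CPM at 0 h, 61.3 and 57.9 at 4 h, 55.5 and 54.6 at 8 h, 56.9 and 51.7 at 12 h, and 68.6 and 62.8 at 24 h. It then stood at 77.5 and 76.4 at 36 h, 91.9 and 94.2 at 48 h, 124 and 109 at 72 h, 168 and 160.4 at 96 h, and 93.9 and 83.2 at 120 h. As for Hoxa9, every library from 4 h on lay above both at 0 h, and the 96 h pair lay above all others. The change at 96 h against 0 h was 1.87 ± 0.10 (adjusted p = 3.52e-13), and 120 h lay below 96 h (log2 -0.89 ± 0.09, adjusted p = 1.42e-07). Its early calls were lost on leaving out 4 h A or 0 h B at 4 h, and 8 h A, 8 h B, 0 h B or the filter on low counts at 8 h. Over the 20 withdrawal libraries log2 CPM of Hoxa9 and of Esr1 had a Pearson r of 0.98 and a Spearman rho of 0.93, as a description of libraries that share a time course.

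With R07 both fusion rows were lower than during withdrawal at the same hours. Hoxa9 read 79.9 CPM with R07 and 173 and 167 in withdrawal at 12 h, and 65.9 with R07 and 219 and 227 in withdrawal at 36 h. At 72 h it read 203 with R07 and 445 and 381 in withdrawal, and at 120 h 178 with R07 and 326 and 277 in withdrawal. The R07 library was below both withdrawal libraries at each of the 4 times, and the difference over the 4 times was -1.14 ± 0.16 (edgeR adjusted p = 0.00302). Esr1 read 28.4, 38.6, 74.1 and 54.7 CPM with R07 at 12, 36, 72 and 120 h, below both withdrawal libraries each time, and differed by -0.81 ± 0.11 (adjusted p = 0.00221). Within the R07 arm both fusion rows were higher at 72 h than at 36 h, a step with 1 library on each side and no test.

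The number of Esr1 counts per Hoxa9 count describes how the 2 rows move relative to each other, not the molecules of either gene, since their lengths differ. With R07 it was 0.355 at 12 h, 0.586 at 36 h, 0.365 at 72 h and 0.308 at 120 h. In the 20 withdrawal libraries it ran from 0.260 to 0.380 with a median of 0.302, and it drifted with time. It was 0.276 and 0.281 at 8 h of withdrawal, 0.380 and 0.347 at 24 h, and 0.273 and 0.260 at 96 h. This drift was not tested. The exact 95% interval at 36 h of R07 was 0.553 to 0.621, which covers counting error only. That library lay apart from the other 23 and was also the one with the lowest Hoxa9 level. No test was made of a single library.

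**Figure D2:**
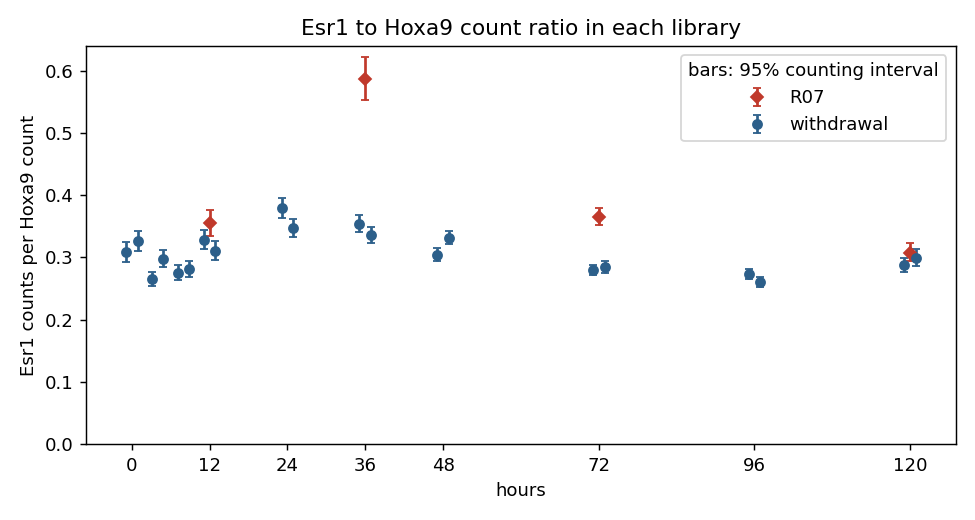
Esr1 counts per Hoxa9 count (y axis) by hours (x axis) in each library, R07 as diamonds and withdrawal as dots, with exact 95% counting intervals as bars. The R07 library at 36 h stands at 0.586, above the withdrawal range of 0.260 to 0.380.

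No other HOX gene was detected at more than 1 count in a library. Of the other 38 genes of the 4 HOX clusters in the table, 34 had no read in any of the 24 libraries and 4 (Hoxb2, Hoxb3, Hoxb4 and Hoxb9) had at most 1 count in a library. The microRNA gene Mir196b had no read. It overlaps Hoxa9 on the same strand and the libraries were oligo-dT-selected, so its expression is not known here.

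Meis1, the HOX cofactor that binds both HOXA9 and PBX, lost most of its level in the first 2 days of withdrawal. It stood at 27.9 and 26.8 CPM at 0 h, 18.4 and 20.2 at 4 h, 23.0 and 24.4 at 8 h, 16.9 and 15.3 at 12 h, and 9.33 and 10.2 at 24 h. It then stood at 7.93 and 7.95 at 36 h, 5.48 and 7.08 at 48 h, 5.31 and 5.35 at 72 h, 4.68 and 5.93 at 96 h, and 5.73 and 6.24 at 120 h. Both libraries at 8 h stood above those at 4 h, and no step after 48 h was called, except 72 h against 48 h when 48 h A was left out (-0.43, adjusted p = 0.0328). Against 0 h the change was -0.50 ± 0.12 at 4 h (adjusted p = 0.00847), -1.49 ± 0.13 at 24 h (adjusted p = 1.14e-08) and -2.21 ± 0.14 at 120 h (adjusted p = 3.94e-12). On leaving out 4 h A the 4 h change had an adjusted p of 0.110, and on leaving out 0 h A one of 0.0557. In bulk RNA, fewer cells of a type and less RNA per cell cannot be told apart.

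With R07 Meis1 did not follow this decline. At 12 h it read 33.5 CPM with R07 and 16.9 and 15.3 in withdrawal, and at 36 h 37.1 with R07 and 7.93 and 7.95 in withdrawal. At 72 h it read 53.5 with R07 and 5.31 and 5.35 in withdrawal, and at 120 h 73.1 with R07 and 5.73 and 6.24 in withdrawal. All 4 R07 libraries lay above all 20 withdrawal libraries, those at 0 h included. The difference over the 4 times was 2.68 ± 0.34 (edgeR adjusted p = 0.00202).

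Pknox1, which binds PBX as MEIS proteins do, ended near its level at 0 h. Its largest step between neighbouring times was from 4 to 8 h (-0.47 ± 0.09, edgeR adjusted p = 0.00121), called whichever library was left out. Its levels were 49.6 and 45.9 CPM at 0 h, 58.8 and 56.0 at 4 h, 42.5 and 41.2 at 8 h, 45.6 and 40.9 at 12 h, and 38.0 and 36.4 at 24 h. They were 36.3 and 37.3 at 36 h, 38.0 and 37.1 at 48 h, 41.0 and 38.3 at 72 h, 47.1 and 46.1 at 96 h, and 48.7 and 44.5 at 120 h. The pair at 4 h was the highest of the course and the libraries at 24 to 48 h the lowest. Called changes against 0 h were at 24 h (-0.36 ± 0.09), 36 h (-0.38 ± 0.09), 48 h (-0.35 ± 0.09) and 72 h (-0.28 ± 0.09), with the call at 24 h lost on leaving out 0 h A or 24 h B, and that at 72 h on leaving out 0 h A, 72 h B or the filter on low counts. At 120 h the difference was -0.05 ± 0.09 (adjusted p = 0.582). With R07 it read 36.5, 29.7, 39.9 and 46.8 CPM at 12, 36, 72 and 120 h. It differed from withdrawal by -0.13 ± 0.10 (adjusted p = 0.406), which was not called. The difference was called with all 24 libraries in 1 fit (-0.13), whose spread comes only from the withdrawal pairs.

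The 3 PBX genes went apart during withdrawal: Pbx2 ended higher, and Pbx3 and Pbx4 lower. Pbx2, the most widely expressed member of its family, stood at 62.6 and 58.8 CPM at 0 h, 59.4 and 59.7 at 4 h, 76.9 and 79.3 at 8 h, 67.5 and 66.3 at 12 h, and 58.7 and 60.4 at 24 h. It then stood at 60.6 and 64.3 at 36 h, 69.0 and 64.1 at 48 h, 92.7 and 78.9 at 72 h, 112 and 117 at 96 h, and 130.2 and 111 at 120 h. After a short rise at 8 h it was back near the 0 h values at 24 h, and from 48 h all libraries were above them. The change at 120 h was 0.97 ± 0.10 (adjusted p = 8.71e-09), and the call at 8 h was lost on leaving out 0 h B, 8 h A or 8 h B. Gpsm3, whose exons overlap those of Pbx2, averaged 127 ± 23.4 CPM at 120 h and 11.8 ± 0.08 at 0 h (SD, n = 2 each), and its part in the Pbx2 values was not tested.

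Pbx3, a PBX protein known as a partner of HOXA9 in leukaemia, stepped down with a partial return at 48 to 72 h. Its levels were 32.01 and 33.1 CPM at 0 h, 24.1 and 26.2 at 4 h, 28.9 and 30.2 at 8 h, 26.9 and 24.0 at 12 h, and 20.8 and 20.6 at 24 h. They were 18.1 and 17.3 at 36 h, 19.4 and 20.3 at 48 h, 22.8 and 23.9 at 72 h, 15.0 and 16.8 at 96 h, and 12.1 and 11.4 at 120 h. Every library after 0 h was below both at 0 h, and the return was not called (72 h against 48 h 0.22 ± 0.10, adjusted p = 0.0727; DESeq2 adjusted p = 0.0437). The change at 120 h was -1.49 ± 0.10 (adjusted p = 2.69e-11). On leaving out 4 h A the 4 h change had an adjusted p of 0.154, and on leaving out 0 h B one of 0.118. The call at 12 h was lost on leaving out 0 h B, 12 h B or the filter on low counts.

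Pbx4, best known in mice for its expression in male germ cells, had the smallest counts and the largest fall. It had 180 and 181 counts at 0 h, 283 and 223 at 4 h, 165 and 155 at 8 h, 140 and 139 at 12 h, and 119 and 142 at 24 h. It had 90 and 124 counts at 36 h, 84 and 112 at 48 h, 46 and 48 at 72 h, 13 and 15 at 96 h, and 10 and 4 at 120 h. In level it went down at each time after 4 h, to 0.277 and 0.138 CPM at 120 h, against 4.55 and 3.70 CPM at 0 h. The change was -4.26 ± 0.30 at 120 h (adjusted p = 3.13e-11), and at 4 h, with both libraries above those at 0 h, it was 0.40 ± 0.18 and not called (adjusted p = 0.167). The call at 24 h was lost on leaving out 0 h A, 24 h A or 24 h B.

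With R07, Pbx3 and Pbx4 stayed above withdrawal and Pbx2 was not called. Pbx4 read 4.36 CPM with R07 and 3.07 and 3.34 in withdrawal at 12 h, and 7.03 with R07 and 1.97 and 2.62 in withdrawal at 36 h. At 72 h it read 7.26 with R07 and 1.12 and 1.15 in withdrawal, and at 120 h 9.32 with R07 and 0.277 and 0.138 in withdrawal. The groups did not overlap at any time, and the difference was 2.70 ± 0.66 (edgeR adjusted p = 0.0259). That call was lost on leaving out 1 of 6 libraries, 36 h A, 72 h A, 72 h B, 120 h A and 120 h B of withdrawal and 72 h of R07, with adjusted p from 0.0511 to 0.0990. Pbx3 read 31.6, 37.5, 34.7 and 31.0 CPM with R07 at 12, 36, 72 and 120 h, above both withdrawal libraries each time, and differed by 0.86 ± 0.17 (adjusted p = 0.01004). Pbx2 read 52.2, 71.9, 78.5 and 69.3 CPM with R07 at these times and lay on no one side of withdrawal (-0.25 ± 0.16, adjusted p = 0.282). It was called with all 24 libraries in 1 fit (-0.27), whose spread comes only from the withdrawal pairs.

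**Figure D3:**
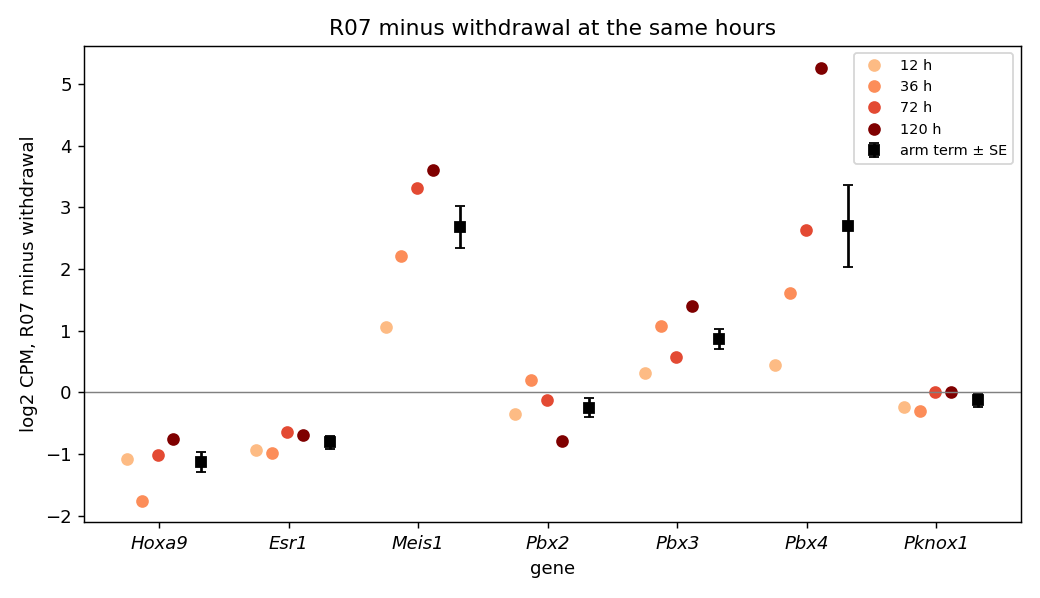
Log2 CPM of the R07 library minus the mean of the 2 withdrawal libraries at the same hour (y axis) for each gene (x axis), with 1 dot a time, and the difference fitted over the 4 times ± SE as squares. Meis1 and Pbx4 lie above 0 and climb with time to 3.60 and 5.27 at 120 h, and Hoxa9 and Esr1 lie below 0 at each time.

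In all, 5 of the 7 members were called between R07 and withdrawal at the same times, against 16.6% of 13641 genes tested. Of these 3 were higher with R07 (Meis1, Pbx3 and Pbx4), against 10.5% of genes, and 2 lower (Hoxa9 and Esr1), against 6.09%. The log2 differences at the single times show how they grew. That of Meis1 was 1.06 at 12 h, 2.22 at 36 h, 3.32 at 72 h and 3.60 at 120 h, and that of Pbx4 was 0.44, 1.61, 2.63 and 5.27. Hoxa9 showed no such growth, with -1.09, -1.76, -1.02 and -0.76.

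A difference in slope over hours was tested after these values had been seen. Meis1 had a least-squares slope of 0.26 log2 units per 24 h with R07 and -0.29 in withdrawal, a difference of 0.56 ± 0.12 in edgeR (adjusted p = 0.00585). Without R07 at 120 h the difference was 0.58 and no longer called (adjusted p = 0.129). Pbx4 had a slope of 0.21 with R07 and -0.83 in withdrawal, a difference of 1.04 ± 0.14 (adjusted p = 4.89e-04). These 2 members were the ones called of 7, against 38.9% of the 13641 genes, and Pbx2 was also called without R07 at 12 h.

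Against 0 h, R07 moved none of the members past the threshold. edgeR called 0 of 7 members and 0% of 13704 genes (0% higher, 0% lower), with 20.9% of genes and 1 member, Meis1, at an unadjusted p under 0.05; DESeq2 called 1326 genes and 0 members. Differences between the 4 R07 times enter the spread of this test. Meis1 read 33.5 to 73.1 CPM with R07, above the 27.9 and 26.8 at 0 h (0.81 ± 0.33, adjusted p = 0.222). Pbx4 read 4.36 to 9.32 CPM with R07 and 4.55 and 3.70 at 0 h, with the 12 h library between the 0 h pair (0.72 ± 0.35, adjusted p = 0.279). With all 24 libraries in 1 fit, the spread comes only from the withdrawal pairs, and differences between R07 libraries do not enter it. Meis1 (0.78), Pbx4 (0.72), Hoxa9 (-0.26) and Pknox1 (-0.34) passed the threshold in that fit. Within the R07 arm Hoxa9 lay below 0 h at 12 and 36 h (log2 -0.81 and -1.09) and above it at 72 and 120 h (0.53 and 0.34).

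Per kilobase of exon, Pbx2 held most of the summed level of Pbx2, Pbx3 and Pbx4, and its share reached higher values in withdrawal than with R07. With R07 it held 66.8, 68.0, 70.7 and 67.2% at 12, 36, 72 and 120 h. In withdrawal it held 69.9% at 0 h, 76.6% at 12 h, 81.3% at 36 h, 84.5% at 72 h and 94.3% at 120 h. Pbx4 held 14.9% with R07 and 0.266% in withdrawal at 120 h, and 7.79% at 0 h. These shares are descriptions, with the exon length of all annotated transcripts as the divisor and no test.

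**Figure D4:**
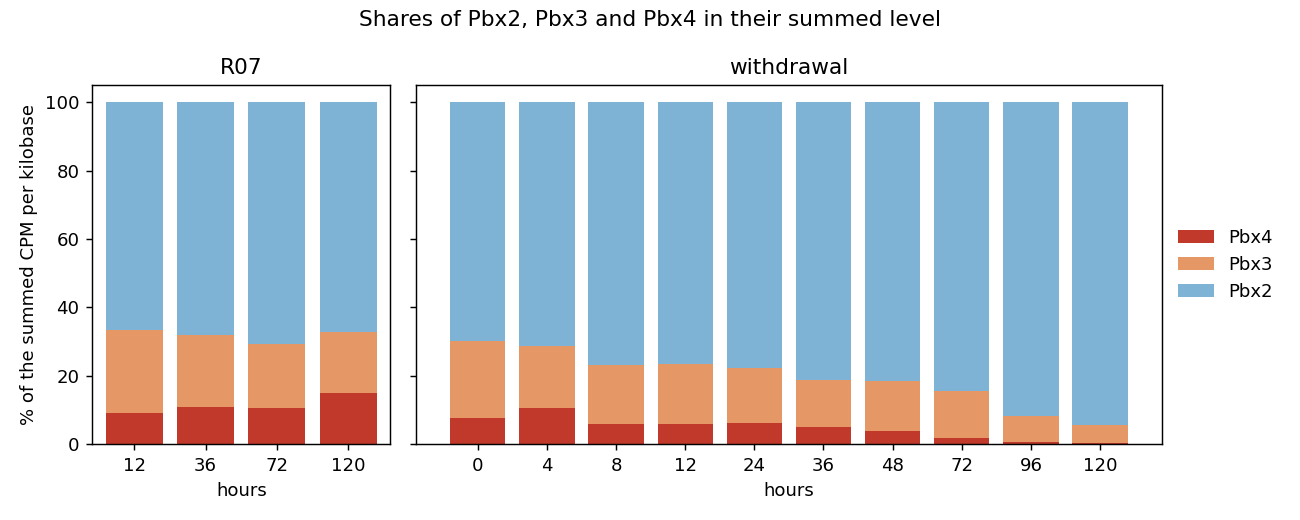
Shares (y axis, %) of Pbx2, Pbx3 and Pbx4 in the sum of their CPM per kilobase of exon, by hours (x axis), R07 on the left with 1 library a bar and withdrawal on the right with the mean of 2. The Pbx2 share is 67.2% with R07 and 94.3% in withdrawal at 120 h.

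On the same scale the order of the 7 genes at 0 h was Hoxa9 (25.2 CPM per kilobase), Pbx2 (16.7), Pknox1 (6.89), Pbx3 (5.33), Esr1 (3.25), Meis1 (2.60) and Pbx4 (1.86). Each gap between neighbours exceeded the SD of both genes (n = 2). At 120 h of R07 the order was Hoxa9 (31.9), Pbx2 (19.0), Meis1 (6.94), Pknox1 (6.75), Pbx3 (5.08), Pbx4 (4.21) and Esr1 (4.01), from 1 library, and at 120 h of withdrawal Meis1 (0.568 ± 0.0344, SD, n = 2) and Pbx4 (0.0935 ± 0.0443) were the lowest. For the fusion rows the divisor is the native gene's exons, which the transgene need not contain.

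Of 13 other TALE homeobox genes in the table, 4 were tested at 120 h of withdrawal, and the remainder had too few counts. Tgif2, a repressor of the TALE class, averaged 0.760 ± 0.49 CPM at 120 h and 22.1 ± 2.46 at 0 h (SD, n = 2 each), a log2 change of -4.82 ± 0.22 (adjusted p = 3.40e-14). It read 17.0 to 23.1 CPM with R07 and was higher there than in withdrawal (2.56 ± 0.73, adjusted p = 0.0427). It was the 1 called of 3 tested, against 16.6% of all genes. Its relative Tgif1 rose by 0.61 ± 0.13 and Irx5 fell by 2.90 ± 0.94 at 120 h, with Irx5 at 17 counts or fewer in each library.

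Of 18 genes described elsewhere as targets of HOXA9 or MEIS1, 6 were higher and 12 lower at 120 h than at 0 h, with a median log2 change of -2.40, against -0.06 over all genes, of which 79.9% were called. At 4 h 1 was higher and 8 were lower (median -0.34, against 0.00 over all genes, of which 11.7% were called). Between R07 and withdrawal 9 were higher with R07, 1 was lower and 8 were not called (median 1.32, against 0.06). Over all genes 10.5% were higher with R07 and 6.09% lower. Sox4, a progenitor transcription factor, averaged 0.380 CPM at 120 h and 167 at 0 h, and read 154 to 194 with R07 (R07 against withdrawal 5.44 ± 1.09, adjusted p = 0.0116). Trib2, a pseudokinase that drives myeloid leukaemia in mice, averaged 0.1002 CPM at 120 h and 21.7 at 0 h, and read 31.7 to 75.2 with R07 (7.37 ± 1.10, adjusted p = 0.00368). In the other direction, C3ar1, a complement receptor of mature myeloid cells, averaged 513 CPM at 120 h and 0.0583 at 0 h, and read 0 to 0.0940 with R07. Ccl4, a chemokine, averaged 40.8 CPM at 120 h and 0.218 at 0 h, and read 0.508 to 3.64 with R07, which did not differ from withdrawal beyond the spread (adjusted p = 0.732). Myb, Flt3, Sox4 and Cd34 of this list are also progenitor markers.

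**Figure D5:**
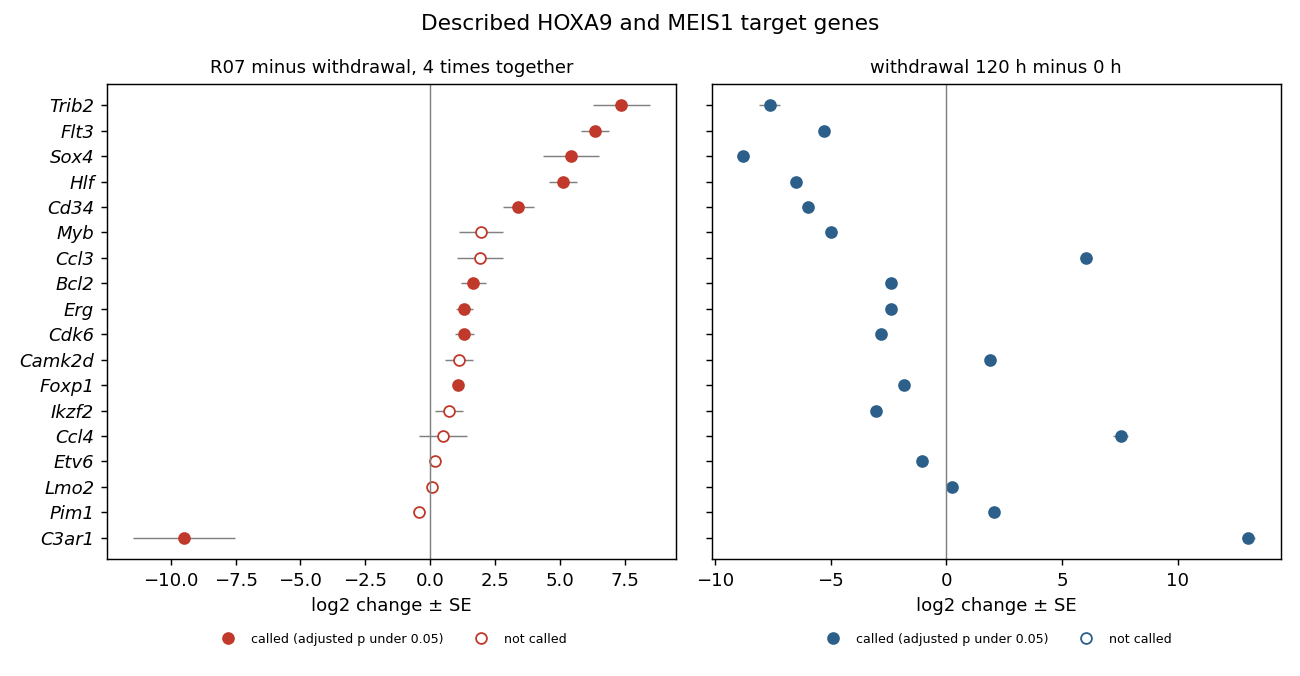
Log2 change ± SE (x axis) of the 18 described HOXA9 and MEIS1 target genes (y axis) for R07 minus withdrawal on the left and withdrawal 120 h minus 0 h on the right; filled dots are called at an adjusted p under 0.05. On the left 9 are called higher and C3ar1 lower, and on the right 6 are called higher and 12 lower.

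Of 9 factors known to bind beside HOXA9, 7 were higher and 2 lower at 120 h than at 0 h. The median was 0.98, against -0.06 over all genes, of which 79.9% were called. Between R07 and withdrawal 1 factor was called, against 16.6% of all genes. That gene was Spi1, the PU.1 factor of myeloid maturation, which averaged 541 CPM at 120 h and 81.8 at 0 h and read 94.95 to 176 with R07 (-1.16 ± 0.31 against withdrawal, adjusted p = 0.0346). Runx1 rose by 1.94 ± 0.11 and Ep300, a histone acetyltransferase, by 1.77 ± 0.13 at 120 h, while Cebpa, a granulocytic factor, fell by 1.86 ± 0.10. Of 14 tested regulators of Hoxa transcription, 3 were higher and 9 lower at 120 h (median -0.86, against -0.06). Over all genes 39.6% were higher and 40.3% lower. With R07 3 regulators were higher than in withdrawal, against 10.5% of all genes. Ezh2, the Polycomb methyltransferase, fell by 3.54 ± 0.12. Psip1, a menin partner, fell by 2.87 ± 0.13, Mllt3, a subunit of the super elongation complex, by 2.82 ± 0.13 and Bmi1, a Polycomb protein, by 1.47 ± 0.13. The 3 higher with R07 were Mllt3 (2.47 ± 0.33, adjusted p = 0.00261), Psip1 (1.17 ± 0.25, adjusted p = 0.0147) and Bmi1 (0.69 ± 0.20, adjusted p = 0.0449).

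Of 12 chaperones and coregulators of the oestrogen receptor, 5 were higher and 7 lower at 120 h than at 0 h. The median was -0.81, against -0.06 over all genes, of which 79.9% were called. At 4 h 1 was higher and 1 lower, against 11.7% of all genes called. Fkbp4, a cochaperone of steroid receptors, changed by -3.77 ± 0.12 and the heat shock protein gene Hsp90aa1 by -3.09 ± 0.13. Ncoa3, a receptor coactivator, rose by 3.27 ± 0.12, and Nrip1, a corepressor, fell by 1.94 ± 0.14. Nrip1 was the 1 gene of the list called between R07 and withdrawal (1.04 ± 0.30, adjusted p = 0.0427), against 16.6% of all genes. Of 5 other oestrogen-related receptors 2 were tested, and both were higher at 120 h than at 0 h, Esrrg by 0.95 ± 0.18 and Esrra by 0.54 ± 0.13, with none called between R07 and withdrawal. Esr2, the second oestrogen receptor, had at most 11 counts in a library.

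Cell type markers also changed during withdrawal, and some differed between R07 and withdrawal. Over all genes 39.6% were called higher and 40.3% lower at 120 h than at 0 h. Between R07 and withdrawal 10.5% of all genes were higher with R07 and 6.09% lower. All 7 progenitor markers were lower at 120 h than at 0 h, 5 were higher with R07 than in withdrawal, and their summed level was 5416 to 5784 CPM with R07, 123 to 3822 CPM in withdrawal at the same hours and 5044 to 5071 CPM at 0 h. Of 13 granulocyte markers 9 were higher and 3 lower at 120 h, with sums of 4856 to 11920 CPM with R07, 7399 to 24520 in withdrawal at the same hours and 5725 to 5896 at 0 h; Ly6g had no read with R07 or at 0 h. Mpo, a marker of early granules, made up much of the sums with R07 (3298 to 9498 CPM) and at 0 h (3851 CPM). Ltf, Ngp, S100a8 and S100a9, made in maturing granulocytes, read 0.417 to 2.42 CPM with R07 and averaged 3468 to 5742 CPM at 120 h of withdrawal. In the test of R07 against withdrawal, 2 of the 13 granulocyte markers were lower with R07, 0 were higher and 11 were not called. Not all markers of the list stayed low with R07. Itgam read 6.37 to 186 CPM with R07, 4.63 at 0 h and 2440 at 120 h of withdrawal. Csf3r read 41.0 to 129 CPM with R07, 32.6 at 0 h and 521 at 120 h of withdrawal. All 8 monocyte and macrophage markers were higher at 120 h, with sums of 60.1 to 134 CPM with R07, 72.8 to 5063 in withdrawal and 27.7 to 30.3 at 0 h. In the test of R07 against withdrawal, 0 were higher, 0 lower and 7 not called. The part of these shifts in cell type in the changes of Meis1, the PBX genes and the fusion rows was not tested.

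Other lineages were also represented, and their counts at 120 h stand against 39.6% of all genes called higher and 40.3% lower. The 7 tested eosinophil markers were all higher at 120 h, with sums of 12.6 to 72.2 CPM with R07, 50.4 to 1896 in withdrawal and 8.67 to 11.7 at 0 h. Of 4 tested mast cell and basophil markers 1 was higher and 3 lower, with sums of 365 to 1210 CPM with R07, 34.7 to 667 in withdrawal and 244 to 286 at 0 h, and Fcer1a had no read with R07 or at 0 h. Of 7 tested B cell markers 1 was higher and 5 lower, with sums of 276 to 519 CPM with R07, 41.2 to 296 in withdrawal and 404 to 422 at 0 h, led by Igll1 and Ebf1 at 0 h (238 and 128 CPM) and by Cd79b at 120 h (82.4 CPM). T and NK cell markers (2 higher, 1 lower of 3 tested) and erythroid markers (0 higher, 1 lower of 2 tested) summed to at most 6.06 and 2.73 CPM in these groups, with Cd3e, Cd8a, Ncr1 and Alas2 at 0. Of 6 tested megakaryocyte markers 3 were higher and 3 lower, with sums of 23.8 to 130 CPM with R07, 26.2 to 78.5 in withdrawal and 16.5 to 18.2 at 0 h.

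Over 8489 genes averaging 3 or more in log2 CPM (8490 for Pbx4), those most alike each member over the 20 withdrawal libraries were found by Pearson r of log2 CPM, as a description of libraries that share a time course. Next to Hoxa9 stood Esr1 (0.98), Mon1b (0.97) and Sh3bp1 (0.96), and next to Esr1 stood Rffl (0.99), Lrrc20 (0.98) and Glyr1 (0.98). By Spearman rho Esr1 ranked only 33 for Hoxa9 (0.93), and E2f2 ranked first (0.98). Next to Meis1 stood Sept6 (0.98), Fbxo8 (0.97) and Smarcd1 (0.96), and next to Pknox1 stood Usp22 (0.91), Slc9a9 (0.91) and Acot11 (0.90). Of the PBX genes, Pbx2 stood next to Relt, Iqsec1 and Add1 (0.98 to 0.99). Pbx3 stood next to Btla, Pde7a and B3galt5 (0.94 to 0.96), and Pbx4 next to S1pr3, Dnmt3b and Sox12 (0.99). Between members other than the fusion pair, r was highest for Pbx3 with Pbx4 (0.85) and lowest for Pbx2 with Pbx4 and Esr1 with Meis1 (-0.89 each), and Pknox1 correlated little with Hoxa9 (0.00), Pbx4 (0.04) or Pbx3 (0.12).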

How the data were processed

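The submitters deposited 1 table of raw whole-number counts per gene for 24 libraries, made from oligo-dT-selected, stranded, paired-end RNA sequencing per the labels' protocols. Per the submitters' processing notes STAR 2.4.2a, Picard and the mm10 build were used; the counting program, its strand setting and the annotation release are not given in the sources used here. Of 45323 lines, 4 name no gene (14.3 to 17.3% of reads) and did not enter library sizes or tests. Symbols were matched for 44585 of 45318 Ensembl identifiers.

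From these counts edgeR 4.0.16 (R 4.3.3, limma 3.58.1) was run with TMM factors, filterByExpr and quasi-likelihood tests, on the whole table. Withdrawal times were fitted together (20 libraries, 14615 genes), R07 against withdrawal with time and arm as terms (12 libraries, 13641 genes), and R07 against 0 h as 1 arm (6 libraries, 13704 genes). The alternatives were RLE factors, no filter, DESeq2 1.42.0, 24 libraries in 1 fit, a replicate block and leaving out each library. Log2 CPM used a prior count of 2. Paired libraries differed more than counting error allows (chi-square per degree of freedom 5.51 to 42.4), and none was treated as a duplicate. Libraries made from 1 culture can also differ by more than counting error, so this does not show that the pairs came from separate cultures. The 3 comparisons with 0 h or with withdrawal were also run on simulated data with 2-fold changes. They recovered 99% (120 h against 0 h, 13362 genes), 100% (R07 against withdrawal, 13005 genes) and 99% (R07 against 0 h, 13066 genes). The simulated libraries were drawn from the 0 h levels with a fixed spread and no change over time. Only well-counted genes were changed. These shares therefore check the calculation and do not measure how many true changes the real comparisons would find.

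The members and gene lists were chosen with earlier results of these data known. The text names the 7 members; of each other list up to 4 called genes with the largest absolute change at 120 h, except that the genes called with R07, marker genes with values of their own, and Esr2 were named after their values were seen; and the 3 genes most alike each member. Some genes that this rule would name are not reported here. Promoter sequences are from RefSeq on GRCm38.p6. Each motif was searched on both strands without mismatches.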

Additional observations from a re-analysis of the deposited data

Results flagged for a closer look

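The slope of Meis1 over hours differed between arms, by 0.556 log2 units per 24 h for R07 minus withdrawal (edgeR adjusted p = 0.00585), with 0.26 in the R07 libraries and -0.29 in the withdrawal libraries. The slope of Pbx4 differed likewise by 1.04 log2 units per 24 h (adjusted p = 4.89e-04), with 0.21 in the R07 libraries and -0.83 in the withdrawal libraries. Both tests were chosen after the values had been seen, and each arm has its own direction in these 2 genes. No group held 4 or more libraries of 1 time, so single libraries were not tested for standing apart within a time.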

How the results depend on the processing

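These changes kept their direction and their call under RLE factors, no filter, DESeq2, 24 libraries in 1 fit and each left-out library: Hoxa9, Esr1, Meis1, Pbx2, Pbx3 and Pbx4 at 120 h against 0 h, and Hoxa9, Esr1, Meis1 and Pbx3 between R07 and withdrawal. Of 672 values under other settings 635 kept direction and call, 10 lost a call, 16 gained one and 11 changed sign; of 2590 with 1 library left out these were 2483, 75, 11 and 21. No change that altered its sign was called in the fit reported above. RLE factors and DESeq2 gave log2 values of -0.0025 and -0.0024 for Pbx2 at 36 h against 0 h, 0.027 and 0.028 for Pknox1 at 120 h against 0 h, and 0.0400 and 0.0402 for Meis1 at 96 h against 72 h. They gave 0.034 and 0.035 for Pknox1 at 120 h against 96 h (0.00062 with 24 libraries in 1 fit), and -0.00057 and -0.00058 for Pbx3 with R07 against 0 h. RLE moved the median of all genes by at most 0.0794.

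Members called from 36 to 48 h were 2 with RLE and 2 with DESeq2; those at 12 h were 1, and from 12 to 24 h 1, with no filter; R07 against withdrawal gave 7 with 24 libraries in 1 fit; and R07 against 0 h gave 4 with 24 libraries in 1 fit. Genes called between R07 and withdrawal were 2262 as reported, 3964 with DESeq2, 9718 with 24 libraries in 1 fit, and 969 (without R07 at 72 h) to 3790 (without R07 at 12 h) with 1 library left out. Against 0 h, R07 gave 0 as reported, 31 with no filter, 1326 with DESeq2, 6925 with 24 libraries in 1 fit and up to 2256 with 1 left out. The cause of these differences was not tested. In the fit of 24 libraries the spread comes only from the withdrawal pairs, and differences between R07 libraries do not enter it. Smaller shifts in members called were 2 from 4 to 8 h with RLE and with DESeq2, and 2 from 12 to 24 h with RLE. DESeq2 gave 3 at 12 h, as did 24 libraries in 1 fit, and 5 from 48 to 72 h. With no filter there were 2 at 8 h, 6 at 72 h and 5 from 72 to 96 h, where the Pknox1 call was lost. Of the 21 genes named as most alike a member, 5 were also named by Spearman correlation.

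With 1 library left out, members called ran from 1 to 4 at 4 h, 0 to 3 at 8 h, 1 to 3 at 12 h and 3 to 6 at 24 h against 0 h. They ran from 1 to 3 for 8 h against 4 h, 0 to 1 for 12 h against 8 h, 1 to 3 for 24 h against 12 h, 0 to 2 for 48 h against 36 h, 2 to 4 for 72 h against 48 h and 1 to 3 for the slope. The lowest counts came without 8 h A or 8 h B for 8 h against 4 h, without 8 h B or 12 h B for 12 h against 8 h, without 72 h A or 48 h B for 72 h against 48 h, and without R07 at 120 h for the slope. The 1 for 24 h against 12 h came without 1 library of 8, 24 or 36 h, and the 0 for 48 h against 36 h without 36 h A, 36 h B or 48 h A. Values that changed sign ran from -0.069 to 0.014 for Pbx2 at 4 h, -0.073 to 0.011 at 24 h and -0.0060 to 0.078 at 36 h, and from -0.110 to 0.032 for Pknox1 at 120 h. Between neighbouring times they ran from -0.234 to 0.011 for Hoxa9 (8 h against 4 h), -0.092 to 0.047 for Esr1 and -0.035 to 0.122 for Pknox1 (12 h against 8 h), -0.048 to 0.013 for Pknox1 (36 h against 24 h), -0.395 to 0.015 for Pbx4 (48 h against 36 h), -0.188 to 0.156 for Meis1 (96 h against 72 h), and -0.042 to 0.183 for Pbx2 and -0.066 to 0.064 for Pknox1 (120 h against 96 h). For R07 against 0 h they ran from -0.412 to 0.093 for Hoxa9, -0.163 to 0.289 for Esr1 and -0.043 to 0.049 for Pbx3, and for the slope from -0.046 to 0.401 for Esr1 and -0.229 to 0.019 for Pbx2. Where 1 library of a time was left, it was assumed to vary like the other pairs.

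Whether the column letters pair the libraries could not be settled. Over 45 pairs of times, the deviations of same-lettered libraries correlated at -0.519 to 0.589, with a median of 0.0773. Of these, 18 were above 0.1. With the letter as a replicate block, members called were 5 at 4 h, 4 at 12 h, 2 from 4 to 8 h, 1 from 24 to 36 h and 2 from 36 to 48 h. R07 has 1 library a time, so no blocked fit of R07 was made. Pbx4 is limited by depth at 96 and 120 h of withdrawal, with 15 counts or fewer in each library.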
